A study of Homo sapiens with 8 samples.

Results

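The genes of glucose uptake, glycolysis, lactate export and the hypoxia response were followed in 143B cells, a human osteosarcoma line. A list of 42 genes was matched by name to the deposited expression table of 21123 genes. Of these, 41 had a row, and the expression of CA9 was not analysed here. The filter on low values was passed by 40 of the 42, since SLC2A3 stayed below 0.2 FPKM in every library. Cells stably carried a non-targeting shRNA (shControl, given the genotype WT in the labels) or an shRNA against ZDHHC8, a palmitoyltransferase that attaches lipid to other proteins. Both kinds of cell were kept for 48 h with PBS as the vehicle or with cisplatin, a platinum compound that forms crosslinks in DNA. The 4 groups were shControl with vehicle, shControl with cisplatin, shZDHHC8 with vehicle and shZDHHC8 with cisplatin, and each had 2 libraries of poly(A)-selected RNA labelled as biological replicates. The labels give no cisplatin dose, name a single ZDHHC8 shRNA without its sequence, and place every library in batch 1.

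Glycolysis splits glucose into pyruvate, and lactate dehydrogenase turns pyruvate into lactate, which monocarboxylate transporters carry out of the cell. When oxygen is low, prolyl hydroxylases of the EGLN family stop marking HIF alpha subunits for degradation, and HIF then pairs with ARNT on DNA and raises transcription of glycolytic genes and of other targets. Many tumour cells, osteosarcoma among them, run glycolysis at a high rate even with oxygen present. HIF alpha subunits are controlled mostly at the protein level, which RNA does not measure.

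Values were taken as FPKM (fragments scaled to gene length and to the size of the library), although the deposited table names no unit. Setting levels of different genes side by side rests on that assumption. Column totals lay between 361060 and 391016, and the read depth is unknown. Every shZDHHC8 total (384281 to 391016) lay above every shControl total (361060 to 369660). A log2 change is the difference of mean log2(FPKM + 1) between groups from limma, with its standard error (SE), and understates the change of low genes. A gene was called higher or lower at a Benjamini-Hochberg adjusted p below 0.05 over the 13495 genes tested, and p-values measure the spread between labelled replicates, which may be technical. Groups are said not to overlap where both libraries of 1 group lie above both of the other. This was also seen for members not called, and its share over all genes is not given, so it describes the values and is no support for a call. In bulk RNA, fewer cells with a transcript and less of it in each cell cannot be told apart. ZDHHC8 stood at 23.7 and 23.1 FPKM in shControl vehicle, 14.3 and 9.81 in shZDHHC8 vehicle, 32.3 and 32.8 in shControl cisplatin, and 23.5 and 22.3 in shZDHHC8 cisplatin. It was lower with the shRNA in vehicle (log2 change -0.92, limma adjusted p = 0.000472) and under cisplatin (-0.49, limma adjusted p = 0.0102), and its level in knocked-down cells under cisplatin lay near that of untreated control cells. Of 10 osteoblast lineage markers, 8 had a row and 5 reached 1 FPKM, with RUNX2 at 9.0 to 14.1 FPKM, while BGLAP and IBSP stayed below 0.5. Of the 4 epithelial markers, KRT8 was high, at 414 to 653 FPKM, and CDH1 was at most 0.392. Among the 3 leukocyte markers CD3E was at 0 in every library and PTPRC at most 0.14, whereas CD68 was 14.5 to 16 FPKM in shControl and 41.4 to 68.7 in shZDHHC8 libraries. The summed level of the 3 followed CD68, from 14.5 to 16 in shControl libraries, 41.4 to 45.9 in shZDHHC8 vehicle and 60.4 to 68.9 in shZDHHC8 cisplatin, and its part in the knockdown results was not tested. The osteoblast lineage genes summed to 165 to 172 FPKM in shControl vehicle, 74.4 to 81.2 in shControl cisplatin, 284 to 299 in shZDHHC8 vehicle and 223 to 226 in shZDHHC8 cisplatin, mostly through SPP1. The epithelial genes summed to 818 to 828, 754 to 765, 609 to 619 and 549.8 to 569 FPKM in the same order, and the part of neither list in the results was tested. Endothelial, muscle and adipocyte markers summed to at most 1.59 FPKM for any list in any library.

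HIF binds DNA at a short core whose letters are ACGTG or GCGTG. These letters were searched on both strands in the 250 bases before the start of each gene in RefSeq (GRCh38.p14), where a palindromic CACGTG counts once on each strand. The members had 68 such windows over 37 genes, CA9 included, and 40 windows (58.8%) held at least 1 match, against 43.2% of 35116 windows of all genes. ACGTG was in 35.3% of the members' windows and 18.5% of all, and GCGTG in 35.3% and 32.2%. Median GC content was 68.4% in the members' windows and 58.0% in all, and its part in the shares was not tested. A match describes letters, not a bound site. The 5 windows below belong to genes that moved strongly with cisplatin in opposite directions, with LDHA, PGK1 and GAPDH lower and EPAS1 and ADM higher in shControl cells. All are on the + strand and written 5′ to 3′, with matches on either strand in capitals.
LDHA (chr11:18394313-18394562): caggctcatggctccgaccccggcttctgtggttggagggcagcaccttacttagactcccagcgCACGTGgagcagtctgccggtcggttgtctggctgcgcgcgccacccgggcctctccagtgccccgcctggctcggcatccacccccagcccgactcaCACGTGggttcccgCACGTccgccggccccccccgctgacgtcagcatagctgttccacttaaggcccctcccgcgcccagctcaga
PGK1 (chrX:78103998-78104247): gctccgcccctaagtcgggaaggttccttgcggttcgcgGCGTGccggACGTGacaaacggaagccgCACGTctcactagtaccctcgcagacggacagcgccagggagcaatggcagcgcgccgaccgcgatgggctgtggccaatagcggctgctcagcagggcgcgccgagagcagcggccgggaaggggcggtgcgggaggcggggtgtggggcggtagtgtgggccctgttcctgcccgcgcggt
GAPDH (chr12:6535014-6535263): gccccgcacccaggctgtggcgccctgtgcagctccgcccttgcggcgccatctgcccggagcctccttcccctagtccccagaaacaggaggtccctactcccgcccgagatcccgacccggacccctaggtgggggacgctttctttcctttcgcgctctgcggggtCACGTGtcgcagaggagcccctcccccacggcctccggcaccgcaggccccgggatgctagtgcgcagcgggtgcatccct
EPAS1 (chr2:46297157-46297406): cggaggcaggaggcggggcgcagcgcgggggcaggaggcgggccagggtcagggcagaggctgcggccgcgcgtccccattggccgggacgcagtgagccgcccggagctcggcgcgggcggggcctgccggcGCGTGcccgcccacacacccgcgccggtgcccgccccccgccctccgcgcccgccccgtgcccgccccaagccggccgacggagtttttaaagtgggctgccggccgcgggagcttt
ADM (chr11:10304823-10305072): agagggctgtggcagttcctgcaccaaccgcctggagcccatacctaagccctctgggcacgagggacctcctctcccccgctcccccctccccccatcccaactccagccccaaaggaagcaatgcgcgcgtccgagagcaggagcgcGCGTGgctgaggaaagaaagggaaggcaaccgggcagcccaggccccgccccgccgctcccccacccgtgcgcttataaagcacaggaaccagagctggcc
The LDHA window held 5 matches, all of ACGTG, and a second LDHA window held 1 of GCGTG. PGK1 held 2 of ACGTG and 1 of GCGTG, and the 2 of GAPDH came from 1 palindrome. EPAS1 and ADM, which rose with cisplatin in shControl cells, each held 1 GCGTG match. The single window of SLC2A1, whose level fell in the same comparison, held none, and nor did that of PKM, which also fell. CA12 and ENO1 fell too, and their windows held 1 and 2 matches of GCGTG and none of ACGTG. EGLN2 rose, and 1 of its windows held 2 matches of ACGTG. Whether the letters go with the direction of change was not tested. The windows printed were chosen among those with a match.

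In untreated control cells the levels of the members ran from over 1000 FPKM to 0, and 5 of the 15 glycolytic enzymes and 2 lactate dehydrogenases were among the 100 most abundant genes. GAPDH stood highest of the members at 1915 ± 52.2 FPKM (SD, n = 2), followed by PKM at 1695 ± 24.2, ENO1 at 1668 ± 8.02, LDHA at 1495 ± 56.8 and ALDOA at 933 ± 3.8. PKM and ENO1 differed by little more than the SD of PKM, and the other steps in that order were larger than the SDs. TPI1 (295 ± 12.9), HIF1A (209 ± 5.03), LDHB (174 ± 1.43) and PFKP (161 ± 0.2) came next. A total of 4 members reached 1000 FPKM, 8 lay from 100 to 1000, 17 from 10 to 100, 10 from 1 to 10, and EGLN3 and SLC2A3 were under 1. Of the glucose transporters, SLC2A1 was at 122 ± 1.47 FPKM while SLC2A3, the transporter of neurons, was listed at 0. The 15 glycolytic enzymes and 2 lactate dehydrogenases summed to 8784 and 8741 FPKM in the shControl vehicle libraries, 2.38% and 2.40% of the column totals. Their sum was 5595 and 5491 (1.52% in each) in shControl cisplatin, 9503 and 9774 (2.47% and 2.53%) in shZDHHC8 vehicle, and 7004 and 6844 (1.79% and 1.76%) in shZDHHC8 cisplatin. The 4 pairs of sums did not overlap, with cisplatin low in each kind of cell and the knockdown high in each treatment. The sum gives most weight to the 5 most abundant members named above and does not stand for each enzyme. With the knockdown in vehicle GAPDH, PKM and ALDOA were called higher among these, and ENO1 and LDHA were not called.

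**Figure D1:**
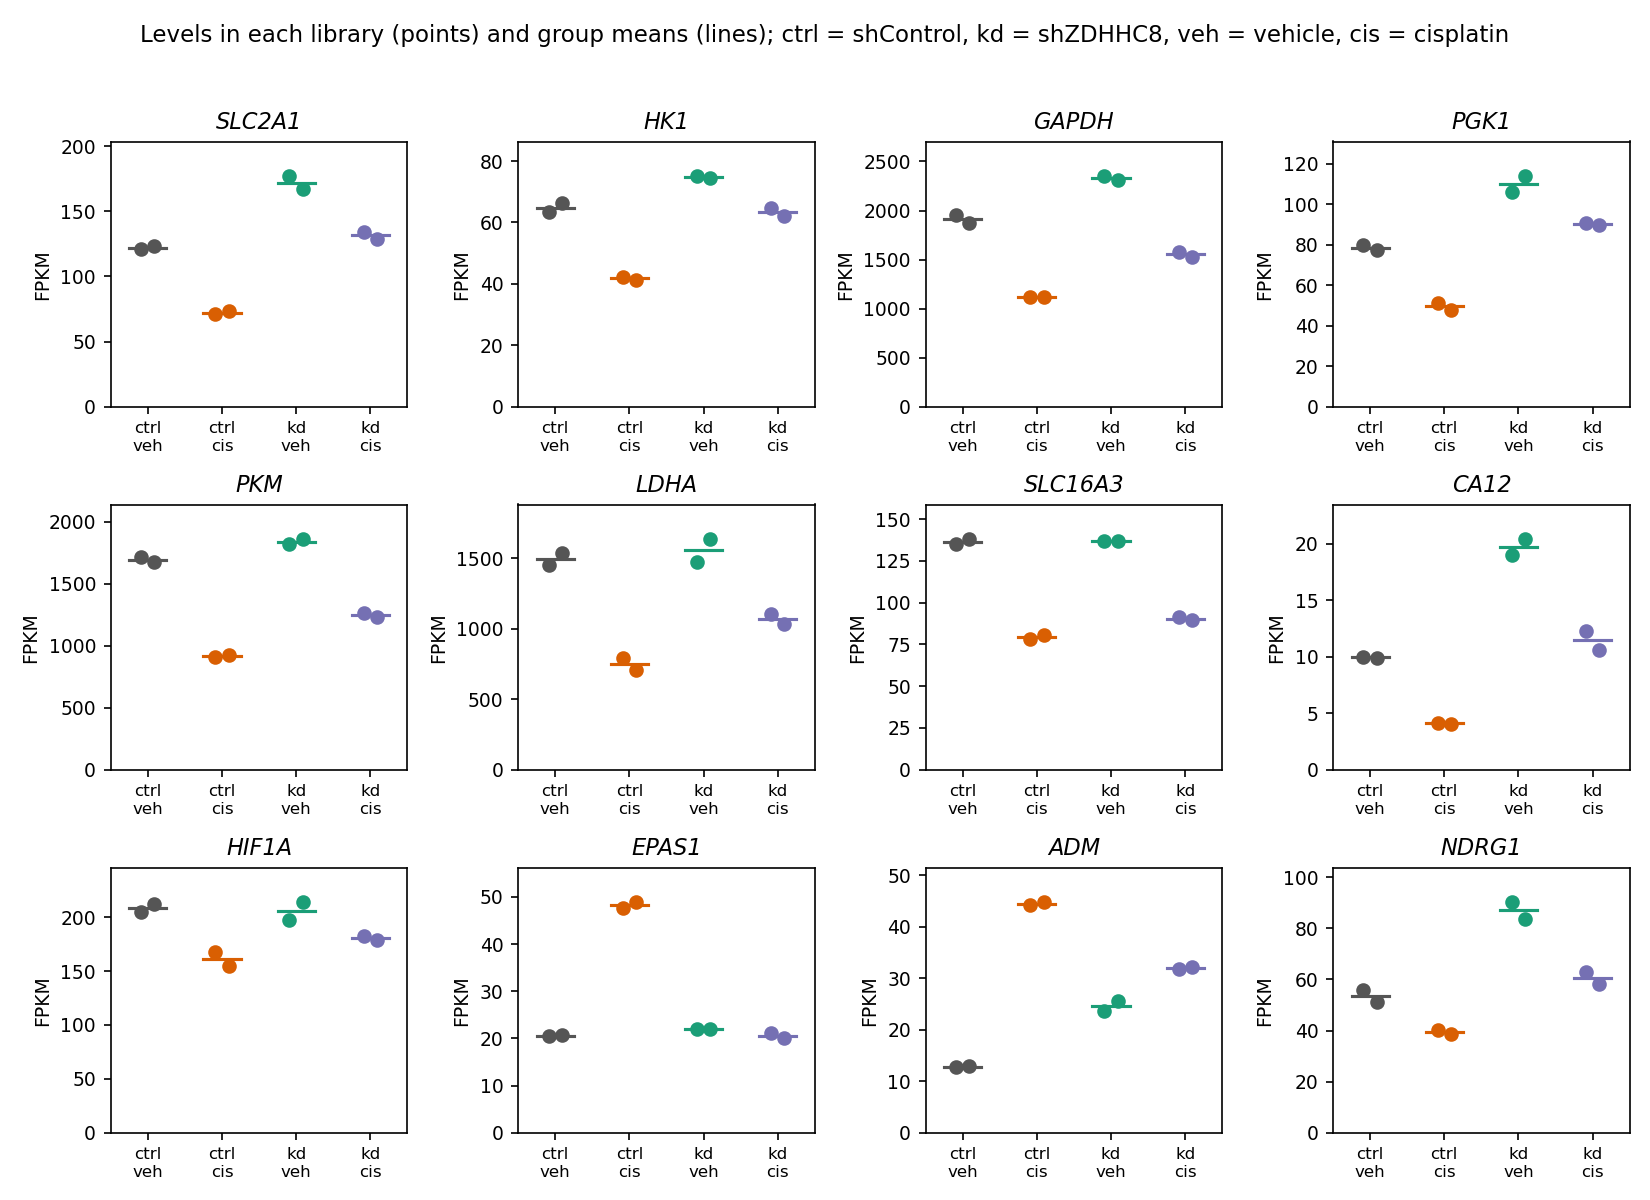
Levels of 12 members in FPKM (vertical axes, each starting at 0) in the 8 libraries, with 1 point a library and a line at each group mean; ctrl is shControl, kd is shZDHHC8, veh is vehicle and cis is cisplatin. SLC2A1, HK1, GAPDH, PGK1, PKM, LDHA and CA12 are lowest in shControl cells given cisplatin, where EPAS1 and ADM are highest.

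The first comparison asked what cisplatin did to these genes in control cells. The glycolytic and lactate genes fell broadly, HIF1A fell with them, and a few genes of the hypoxia response rose. Of 40 tested members, 22 were called lower and 6 higher, while over all tested genes 25.4% were called lower and 36.8% higher (62.2% in either direction). The median log2 change of the members was -0.26, beside 0.07 for all genes, and single members ranged from -1.10 to 1.72. Of the 15 glycolytic enzymes 11 fell and 1 rose, both lactate dehydrogenases fell, and of 9 other hypoxia targets 5 fell and 2 rose.

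SLC2A1 (ENSG00000117394, hg38 chr1:42925353-42958893), the main glucose importer of many tumour cells, was at 121 and 123 FPKM in vehicle and 71.1 and 73.2 with cisplatin. The groups did not overlap, and cisplatin left 59.0% of the vehicle mean (log2 change -0.75 ± 0.046 SE, limma adjusted p = 2.47e-06). HK1, which commits glucose to the cell by phosphorylation, went from 63.3 and 66.3 to 42.3 and 41.3 FPKM (-0.62 ± 0.0463, limma adjusted p = 7.26e-06). Its inducible relative HK2 (ENSG00000159399, chr2:74834127-74893359) did not follow, with 8.63 and 8.74 FPKM in vehicle and 9.34 and 8.94 with cisplatin (0.07 ± 0.0599, limma adjusted p = 0.369).

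GAPDH (ENSG00000111640, chr12:6534512-6538374), which oxidises glyceraldehyde phosphate and is often used as a reference gene, was at 1952 and 1878 FPKM in vehicle and 1119.7 and 1118 with cisplatin. It fell by 0.77 on the log2 scale (SE 0.0417, limma adjusted p = 1.29e-06), with no overlap of the groups. PGK1 (ENSG00000102144, chrX:77910739-78129295), the first enzyme of the pathway to make ATP, went from 79.9 and 77.5 to 51.4 and 47.8 FPKM (-0.66 ± 0.0544, limma adjusted p = 1.33e-05). PKM (ENSG00000067225, chr15:72199029-72231822), which makes pyruvate, had 1713 and 1678 FPKM in vehicle and 913 and 922 with cisplatin. None of these groups overlapped, and PKM was left at 54.1% of its vehicle mean (-0.88 ± 0.04, limma adjusted p = 5.42e-07). Among the other enzymes ALDOC, ALDOA, GPI, PGAM1, ENO1, PFKL and TPI1 also fell, with log2 changes from -0.70 to -0.25. ENO2, the enolase of neurons, was the enzyme that rose, by 0.22 (8.9 and 9.23 to 10.9 and 10.5 FPKM, limma adjusted p = 0.0312). PFKM and PFKP were not called (0.09 and -0.07).

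LDHA (ENSG00000134333, chr11:18394560-18408425), the muscle-type subunit that favours lactate formation, fell from 1455 and 1535 to 794 and 709.9 FPKM. That left 50.3% of the vehicle mean (-0.99 ± 0.0708, limma adjusted p = 5.89e-06). LDHB, the heart-type subunit, fell less, from 175 and 173 to 155 and 146 FPKM (-0.20 ± 0.0547, limma adjusted p = 0.0105). The lactate exporter SLC16A3 (MCT4; ENSG00000141526, chr17:82228397-82261129) went from 135 and 138 to 78.3 and 80.8 FPKM (-0.77 ± 0.0409, limma adjusted p = 1.18e-06). The other monocarboxylate transporter, SLC16A1 (MCT1), moved the other way, from 22.5 and 21.9 to 27.1 and 27.5 FPKM (0.29 ± 0.0538, limma adjusted p = 0.00152). The pair of transporters thus changed in opposite directions without overlap of the groups. Of the pyruvate dehydrogenase kinases, PDK3 fell by 0.32 (limma adjusted p = 0.0312) and PDK1 was not called (0.22, limma adjusted p = 0.15).

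HIF1A (ENSG00000100644, chr14:61695513-61748259) fell from 205 and 212 to 168 and 155 FPKM (-0.37 ± 0.0559, limma adjusted p = 0.000465). EPAS1 (ENSG00000116016, chr2:46293667-46386697), which encodes the other main HIF alpha subunit, rose from 20.5 and 20.7 to 47.7 and 48.9 FPKM (1.19 ± 0.0486, limma adjusted p = 3.95e-07). Its cisplatin mean was 234% of vehicle, although HIF1A remained the more abundant of the pair. The dimer partner ARNT was not called (0.07, limma adjusted p = 0.305). Of the hydroxylases, EGLN2 rose from 51.6 and 51.3 to 69.3 and 73.4 FPKM (0.46 ± 0.052, limma adjusted p = 7.48e-05), and EGLN1, EGLN3 and P4HTM were not called.

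The targets outside glycolysis split. CA12 (ENSG00000074410, chr15:63321378-63381846), a membrane carbonic anhydrase that handles extracellular acid, had the largest fall of all members, from 10.0 and 9.92 to 4.13 and 4.09 FPKM (-1.10 ± 0.0751, limma adjusted p = 4.46e-06). BNIP3L and BNIP3, which mark mitochondria for autophagy, fell by 0.73 and 0.53, and NDRG1 and the histone demethylase KDM3A fell by 0.43 and 0.27. ADM (ENSG00000148926, chr11:10305073-10307397), which encodes the vasodilator peptide adrenomedullin, had the largest rise, from 12.8 and 12.9 to 44.2 and 44.8 FPKM (1.72 ± 0.052, limma adjusted p = 1.32e-07). Its groups lay far apart, with cisplatin at 346% of vehicle. VEGFA, the angiogenic growth factor, was at 60.6 and 59.7 FPKM in vehicle and 79.9 and 67.1 with cisplatin (0.28 ± 0.106, limma adjusted p = 0.0447), and its cisplatin libraries differed among themselves more than the vehicle ones. ANKRD37 and MXI1 were not called (0.17 and -0.10).

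Of these 28 calls, 4 ended when libraries were left out. That of ENO2 ended without any 1 of the 4 shControl libraries (limma adjusted p 0.0589 to 0.127) and under median-of-ratios scaling (0.188). That of VEGFA ended without either shControl vehicle library (0.11 and 0.133), either shZDHHC8 vehicle library (0.0545) or the first shControl cisplatin library (0.271), and under median-of-ratios scaling (0.162). PDK3 lost its call without the second shControl vehicle library (0.179) or either cisplatin library (0.102 and 0.0821), and LDHB without the first shControl vehicle (0.0514) or the second shControl cisplatin library (0.0703).

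**Figure D2:**
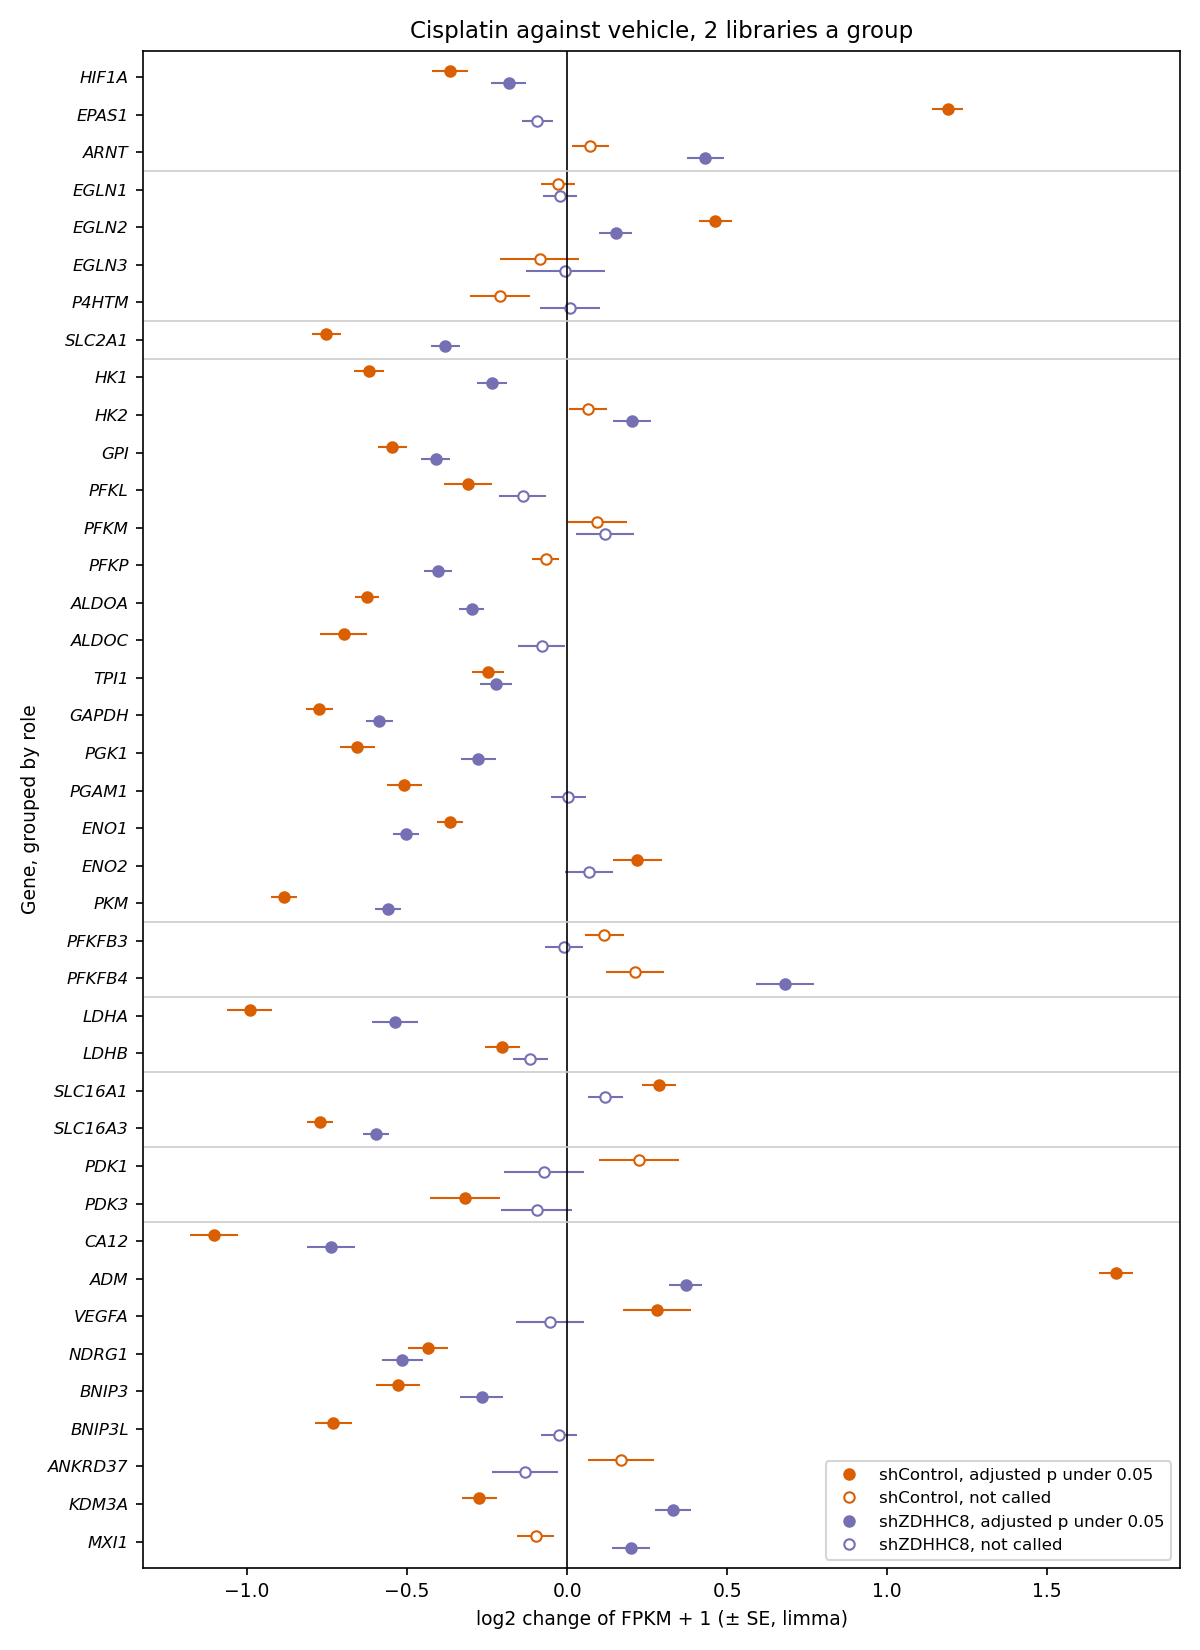
Log2 change of FPKM + 1 with cisplatin (horizontal axis, points with SE bars from limma) for the 40 tested members, grouped by role, in shControl and shZDHHC8 cells; filled points had an adjusted p below 0.05 and open points did not. Most shControl points of the glycolytic enzymes lie further left than their shZDHHC8 points, while the EPAS1 and ADM points of shControl cells, at 1.19 and 1.72, lie far to the right.

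In shZDHHC8 cells cisplatin again lowered much of glycolysis and left EPAS1 near its vehicle level. Here 16 of 40 members were called lower and 7 higher, beside 13.6% and 36.9% of all tested genes (50.5% in either direction). The median was -0.09 for the members and 0.13 for all genes. Of the 15 glycolytic enzymes 9 fell and HK2 rose. Under median-of-ratios scaling the median of all genes moved from 0.13 to 7e-04, the members' median became -0.222, and their split became 23 lower and 4 higher.

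CA12 had the largest fall, from 19.0 and 20.4 to 12.3 and 10.6 FPKM (-0.74 ± 0.0751, limma adjusted p = 0.000116). SLC16A3 went from 137 and 137 to 91.1 and 89.6 FPKM (-0.60 ± 0.0409, limma adjusted p = 1.97e-05), and GAPDH from 2351 and 2310.3 to 1578 and 1526 (-0.59 ± 0.0417, limma adjusted p = 2.3e-05). The vehicle and cisplatin libraries did not overlap for any of the 3 genes. PKM, at 1819 and 1861 FPKM in vehicle, was at 1267 and 1229.5 with cisplatin (-0.56 ± 0.04, limma adjusted p = 2.37e-05). LDHA went from 1476 and 1637 to 1106 and 1035 FPKM (-0.54 ± 0.0708, limma adjusted p = 0.00042), which left 68.8% of its vehicle mean. SLC2A1 was at 177 and 167 FPKM in vehicle and 134 and 129 with cisplatin (-0.38 ± 0.046, limma adjusted p = 0.000273). All 4 cisplatin values given here for SLC2A1 and PKM lay below their vehicle values. PGK1 fell from 106 and 114 to 90.7 and 89.8 FPKM (-0.28 ± 0.0544, limma adjusted p = 0.00308). NDRG1, ENO1, GPI and PFKP fell by 0.52, 0.50, 0.41 and 0.40, and ALDOA, BNIP3, HK1 and TPI1 by 0.30 to 0.22. HIF1A was at 197 and 214 FPKM in vehicle and 183 and 179 with cisplatin (-0.18 ± 0.0559, limma adjusted p = 0.0238).

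The largest rise was that of PFKFB4, a bifunctional enzyme that makes and removes an activator of phosphofructokinase. It went from 3.78 and 3.07 to 6.06 and 6.08 FPKM (0.68 ± 0.0906, limma adjusted p = 0.000442). ARNT rose from 11.5 and 11.1 to 15.1 and 16 FPKM (0.43 ± 0.0577, limma adjusted p = 0.000447), and ADM from 23.6 and 25.5 to 31.9 and 32.1 (0.37 ± 0.052, limma adjusted p = 0.000579). In each of the 3, both cisplatin libraries stood above both vehicle libraries. KDM3A rose from 12.4 and 12.8 to 15.9 and 16.4 FPKM (0.33 ± 0.0557, limma adjusted p = 0.00143), and HK2 from 11.9 and 11.5 to 13.2 and 14.1 (0.20 ± 0.0599, limma adjusted p = 0.0205). MXI1, a MYC antagonist, and EGLN2 rose by 0.20 and 0.15. EPAS1 was at 22.0 and 22.1 FPKM in vehicle and 21.1 and 20.1 with cisplatin and was not called (-0.09 ± 0.0486, limma adjusted p = 0.14), although under median-of-ratios scaling it was called lower (-0.24, limma adjusted p = 0.00455).

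EGLN2 and PGAM1 changed sign under median-of-ratios scaling (EGLN2 from 0.15 to -0.00141 and PGAM1 from 0.00 to -0.15, the latter with a limma adjusted p of 0.0323), and HK2 and MXI1 lost their calls there (0.439 and 0.511). EGLN2 also lost its call under common total scaling (limma adjusted p = 0.063). Single libraries ended 6 calls. Without the second shZDHHC8 vehicle library the limma adjusted p was 0.168 for EGLN2, 0.0837 for HK2, 0.132 for HIF1A and 0.0652 for BNIP3, and without the first it was 0.0942 for MXI1. Without the first shZDHHC8 cisplatin library it was 0.203 for EGLN2, 0.0736 for MXI1, 0.0651 for HIF1A and 0.0525 for TPI1. Without the second it was 0.0556 for EGLN2, 0.0894 for MXI1, 0.131 for HK2, 0.111 for HIF1A and 0.0608 for BNIP3, and EGLN2 also lost its call without the first or second shControl vehicle library (0.0569 and 0.057).

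Called lower with cisplatin in both kinds of cell were 15 members, namely ALDOA, BNIP3, CA12, ENO1, GAPDH, GPI, HIF1A, HK1, LDHA, NDRG1, PGK1, PKM, SLC16A3, SLC2A1 and TPI1. ADM and EGLN2 were called higher in both. Over all tested genes 10.1% were called lower in both and 25.4% higher in both, beside 37.5% and 5% of the members. The 2 comparisons share no libraries.

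With the knockdown in vehicle, the glucose transporter SLC2A1 and 8 of the 15 glycolytic enzymes rose, as did several hypoxia targets. Of 40 members, 16 were called higher and 4 lower, beside 26.7% and 25% of all tested genes (51.7% in either direction). The median was 0.10 for the members and 0.02 for all genes, and changes ranged from -0.50 to 0.92. None of the other 7 enzymes was called lower, but GPI was under common total scaling (-0.12, limma adjusted p = 0.0437) and PFKL without the first shZDHHC8 vehicle library (-0.26, limma adjusted p = 0.00946). With columns scaled to a common total the split of members was 14 higher and 6 lower. Both knockdown comparisons had CD68 higher in the shZDHHC8 libraries, with the values given above.

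CA12 had the largest rise, from 10.0 and 9.92 FPKM in shControl to 19.0 and 20.4 in shZDHHC8 cells (0.92 ± 0.0751, limma adjusted p = 2.28e-05). ADM rose from 12.8 and 12.9 to 23.6 and 25.5 FPKM (0.88 ± 0.052, limma adjusted p = 4.25e-06). NDRG1 (ENSG00000104419), a stress-induced gene of differentiation, rose from 56.0 and 51.3 to 90.3 and 83.8 FPKM (0.69 ± 0.0631, limma adjusted p = 4.08e-05). The libraries of the 2 kinds of cell did not overlap for these targets. EGLN3, a hydroxylase that is itself a HIF target, was at 0.654 and 0.501 FPKM in shControl and 1.39 and 1.5 in shZDHHC8 cells (0.63 ± 0.123), and passed the filter only through the knockdown groups, so its call, though counted, is no support for a difference. ENO2 rose from 8.9 and 9.23 to 14.7 and 12.8 FPKM (0.55 ± 0.0755, limma adjusted p = 0.000404).

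At the entry of the pathway, SLC2A1 rose from 121 and 123 FPKM to 177 and 167 (0.49 ± 0.046, limma adjusted p = 4.8e-05), and HK2 from 8.63 and 8.74 to 11.9 and 11.5 (0.39 ± 0.0599, limma adjusted p = 0.000745). Further down, PGK1 rose from 79.9 and 77.5 to 106 and 114 FPKM (0.47 ± 0.0544, limma adjusted p = 0.000144). GAPDH, PGAM1, ALDOA, HK1 and PKM rose by 0.28, 0.26, 0.21, 0.21 and 0.12, and PDK1, EGLN2 and MXI1 by 0.40, 0.24 and 0.17. LDHA, with 1455 and 1535 FPKM against 1476 and 1637, overlapped between the groups and was not called (0.06 ± 0.0708, limma adjusted p = 0.527). HIF1A (-0.02 ± 0.0559, limma adjusted p = 0.743) and EPAS1 (0.09 ± 0.0486, limma adjusted p = 0.144) were not called either. The EPAS1 groups did not overlap, with 20.5 and 20.7 FPKM in shControl and 22.0 and 22.1 in shZDHHC8 cells. With 2 libraries a group, a missing call does not show that a level was unchanged. The part of HIF in the rises was not tested.

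The 4 falls were of P4HTM, PFKFB3, BNIP3L and ARNT. P4HTM, a membrane-bound prolyl hydroxylase, went from 3.56 and 3.11 to 2.18 and 1.95 FPKM (-0.50 ± 0.0935, limma adjusted p = 0.00218). PFKFB3, the relative of PFKFB4 that mainly makes the activator, went from 32.5 and 35.1 to 25.3 and 26.3 FPKM (-0.37 ± 0.0605, limma adjusted p = 0.000981). BNIP3L was at 17.7 and 17.6 FPKM in shControl and 15.1 and 15.4 in shZDHHC8 cells (-0.20 ± 0.057, limma adjusted p = 0.0174), and ARNT at 12.7 and 13.0 against 11.5 and 11.1 (-0.18 ± 0.0577, limma adjusted p = 0.031). All 4 had both knockdown libraries below both control libraries. So did GPI, TPI1, SLC16A1 and PDK3, which were not called, so the lack of overlap does not set the 4 apart.

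Small changes were the least firm. PKM lost its call under common total scaling (limma adjusted p = 0.308), median-of-ratios scaling (0.071), and without either shControl vehicle (0.0739 and 0.147), either shZDHHC8 vehicle (0.0588 and 0.135) or either shZDHHC8 cisplatin library (0.0508 and 0.0509). MXI1 lost its call under the same scalings (0.179 and 0.0695) and without the same 6 libraries (0.0527 to 0.184). Without the first and the second shControl vehicle library in turn the limma adjusted p was 0.0738 and 0.138 for ARNT and 0.073 and 0.0686 for BNIP3L. Without the first shZDHHC8 vehicle library it was 0.117 for PDK1, 0.0521 for ARNT and 0.0617 for BNIP3L, without the second it was 0.0572 for PDK1 and 0.115 for ARNT, and without the first shControl vehicle library it was 0.135 for PDK1.

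**Figure D3:**
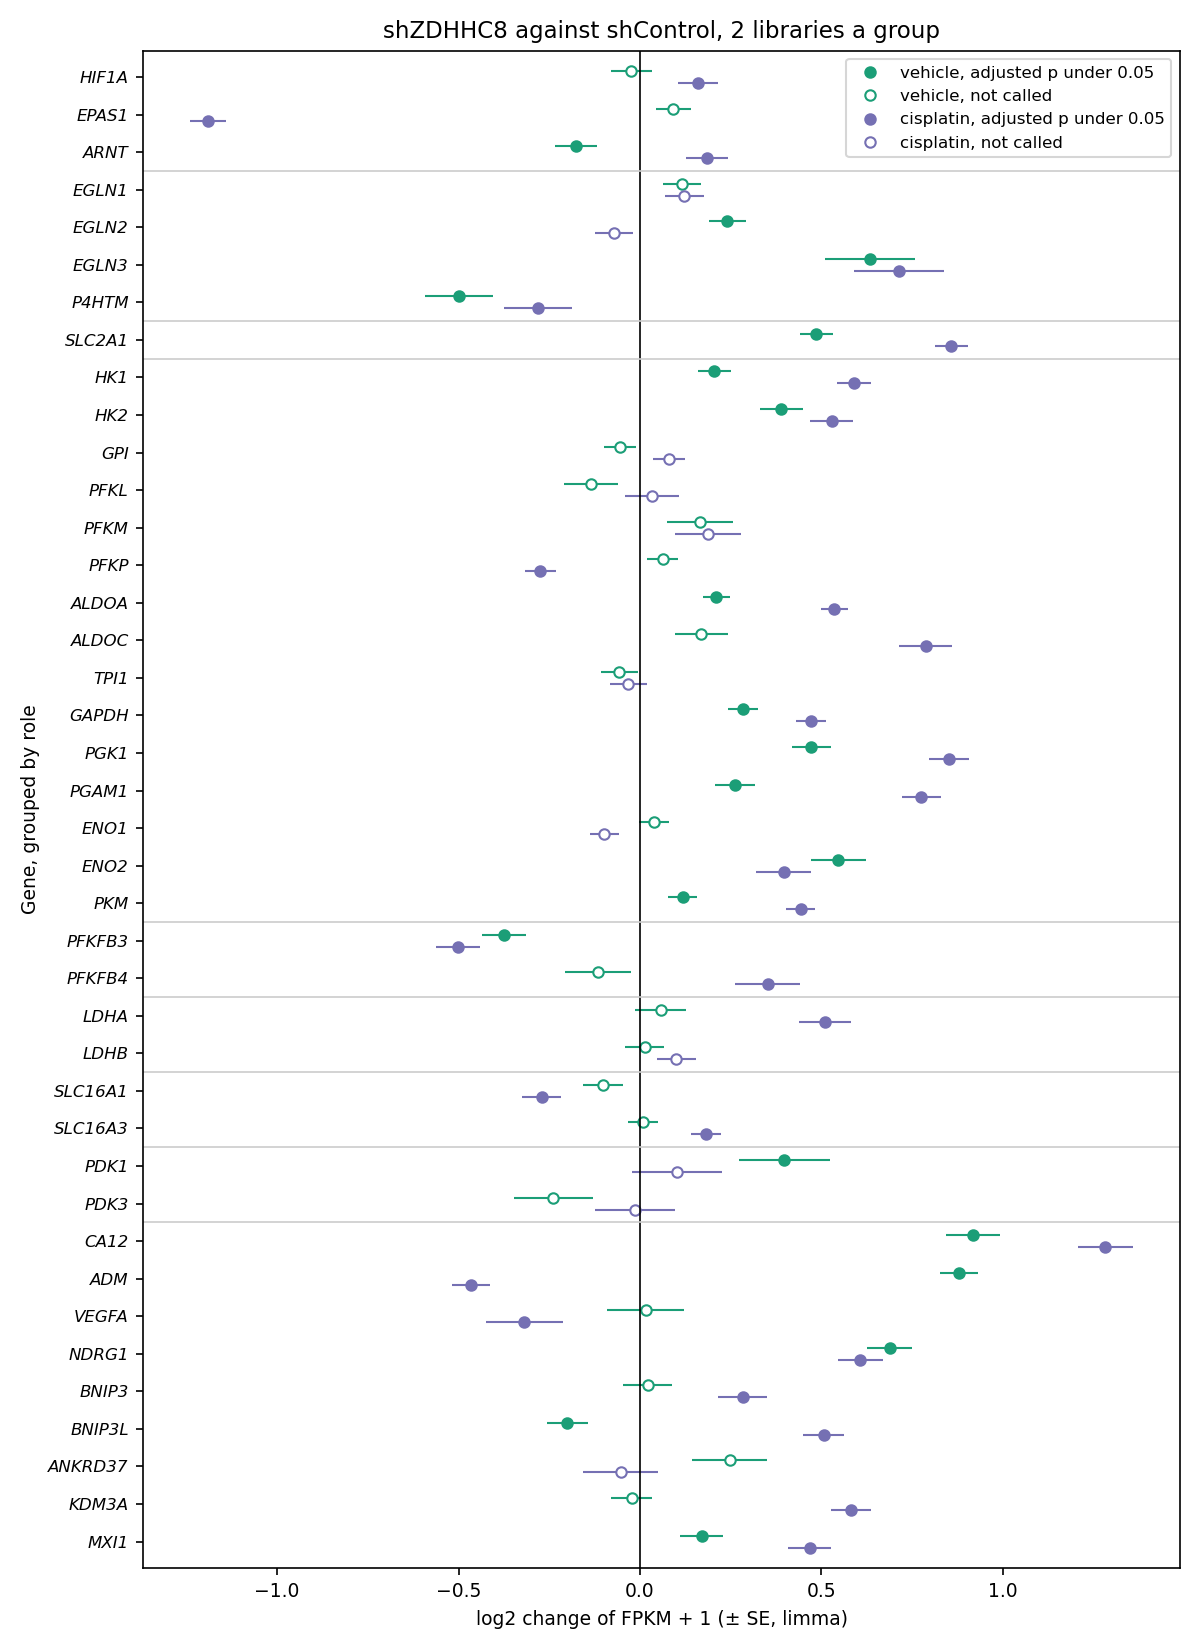
Log2 change of FPKM + 1 between shZDHHC8 and shControl cells (horizontal axis, points with SE bars from limma) for the 40 tested members, grouped by role, in vehicle and under cisplatin; filled points had an adjusted p below 0.05. CA12, SLC2A1 and PGK1 lie to the right in both treatments, and EPAS1 lies at -1.19 under cisplatin.

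Under cisplatin the shZDHHC8 cells held more RNA of most glycolytic genes than the control cells did, and less EPAS1 and ADM. Each knockdown comparison shared a group of libraries with each cisplatin comparison. The shControl cisplatin libraries used here also gave the changes with cisplatin in shControl cells. A member that moved in opposite directions in these comparisons is therefore not separate evidence from each. Of 40 members, 22 were called higher and 7 lower, beside 33.8% and 27.6% of all tested genes (61.4% in either direction). The 22 include EGLN3, which passed the filter only through the knockdown groups, so its call is no support for a difference. The median was 0.19 for the members and 0.04 for all genes. Of the 15 glycolytic enzymes 9 rose and PFKP fell, and of the 9 other hypoxia targets 6 rose and 2 fell. ENO1 was not called (-0.10), but was called lower under common total (-0.19, limma adjusted p = 0.00207) and median-of-ratios scaling (-0.17, limma adjusted p = 0.00457).

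CA12 was at 4.13 and 4.09 FPKM in shControl and 12.3 and 10.6 in shZDHHC8 cells (1.28 ± 0.0751, limma adjusted p = 2.82e-06). SLC2A1 was at 71.1 and 73.2 FPKM against 134 and 129 (0.86 ± 0.046, limma adjusted p = 1.85e-06), and PGK1 at 51.4 and 47.8 against 90.7 and 89.8 (0.85 ± 0.0544, limma adjusted p = 4.28e-06). The knockdown libraries of these genes stood well clear of the control ones. ALDOC, the aldolase of brain, was at 1.82 and 1.81 FPKM against 3.93 and 3.80 (0.79 ± 0.0737, limma adjusted p = 3.21e-05). PGAM1, the phosphoglycerate mutase, was at 79.1 and 72.3 FPKM against 131 and 129 (0.78 ± 0.055, limma adjusted p = 7.32e-06). LDHA was at 794 and 709.9 FPKM against 1106 and 1035 (0.51 ± 0.0708, limma adjusted p = 0.000297), and HK2 at 9.34 and 8.94 against 13.2 and 14.1 (0.53 ± 0.0599, limma adjusted p = 9.28e-05). HIF1A was slightly higher, with 168 and 155 FPKM against 183 and 179 (0.16 ± 0.0559, limma adjusted p = 0.0342). Further rises from 0.18 to 0.61 were called for NDRG1, HK1, KDM3A, ALDOA, BNIP3L, MXI1, GAPDH, PKM, ENO2, PFKFB4, BNIP3, ARNT and SLC16A3, and EGLN3 was at 0.357 and 0.625 FPKM in shControl against 1.56 and 1.32 in shZDHHC8 cells.

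EPAS1 was at 47.7 and 48.9 FPKM in shControl and 21.1 and 20.1 in shZDHHC8 cells (-1.19 ± 0.0486, limma adjusted p = 6.21e-07), the largest fall of the members. The same shControl cisplatin libraries gave the rise of EPAS1 with cisplatin, so that rise and this fall are not independent. PFKFB3 was at 35.1 and 38.3 against 25.6 and 25.7 FPKM (-0.50 ± 0.0605, limma adjusted p = 0.000133), and ADM at 44.2 and 44.8 against 31.9 and 32.1 (-0.46 ± 0.052, limma adjusted p = 8.61e-05). None of these groups overlapped. VEGFA, at 79.9 and 67.1 FPKM against 64.9 and 52.8, was lower by a narrower margin (-0.32 ± 0.106, limma adjusted p = 0.0274). P4HTM was at 2.70 and 2.79 FPKM against 2.23 and 1.93 (-0.28 ± 0.0935, limma adjusted p = 0.0278), and SLC16A1 and PFKP each fell by 0.27.

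The call of HIF1A ended under common total scaling (limma adjusted p = 0.313), median-of-ratios scaling (0.145), without the second shControl cisplatin library (0.207) and without either shZDHHC8 cisplatin library (0.141 and 0.0785). Common total scaling also ended the calls of SLC16A3 (0.107) and ARNT (0.209), the latter lost under median-of-ratios scaling too (0.121). Without the first shControl cisplatin library the limma adjusted p was 0.178 for VEGFA, 0.103 for ARNT and 0.0688 for P4HTM, and without the second it was 0.105 for P4HTM. Without the second shZDHHC8 cisplatin library it was 0.201 for VEGFA, 0.139 for ARNT and 0.155 for P4HTM.

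In the 2 knockdown comparisons, which share no libraries, 13 members were called higher in both treatments, namely ALDOA, CA12, EGLN3, ENO2, GAPDH, HK1, HK2, MXI1, NDRG1, PGAM1, PGK1, PKM and SLC2A1. P4HTM and PFKFB3 were called lower in both. The shares were 32.5% and 5% of the members, beside 18.6% and 16.1% of all tested genes. The 13 include EGLN3, which passed the filter only where it was high, and PKM and MXI1, whose calls in vehicle were lost in 12 and 11 alternatives. ANKRD37, EGLN1 and PFKM were called in none of the 5 comparisons.

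The interaction asked directly whether cisplatin changed a gene differently in shZDHHC8 than in shControl cells, and a positive value means a change that was less negative or more positive in shZDHHC8 cells. Of 40 members, 15 had a positive and 4 a negative interaction that passed the test, beside 17% and 13.4% of all tested genes (30.4% in either direction). The median was 0.17 for the members and 0.04 for all genes. Each value is the change in shZDHHC8 cells minus that in shControl cells, so it shares libraries with both.

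BNIP3L had the largest positive value, 0.71 ± 0.0807 (limma adjusted p = 0.000592). It went from 17.7 and 17.6 to 10.4 and 10.1 FPKM with cisplatin in shControl cells, and from 15.1 and 15.4 to 15.6 and 14.4 in shZDHHC8 cells. Cisplatin thus left 58.0% of the vehicle mean in the first and 98.3% in the second. ALDOC followed with 0.62 ± 0.104 (limma adjusted p = 0.00334), at 3.54 and 3.61 FPKM before and 1.82 and 1.81 after cisplatin in shControl cells, and 3.98 and 4.31 before and 3.93 and 3.80 after in shZDHHC8 cells. KDM3A changed direction: it was 12.6 and 13.0 FPKM in vehicle and 10.2 and 10.7 with cisplatin in shControl cells, but rose in shZDHHC8 cells (interaction 0.60 ± 0.0788, limma adjusted p = 0.00105). PGAM1 fell from 108 and 109 to 79.1 and 72.3 FPKM in shControl cells and was at 126 and 134 against 131 and 129 in shZDHHC8 cells (0.51 ± 0.0777, limma adjusted p = 0.00204). Its 2 groups overlapped in the latter. PFKFB4, at 3.98 and 3.59 FPKM in vehicle and 4.43 and 4.65 with cisplatin in shControl cells, had 0.47 ± 0.128 (limma adjusted p = 0.0253).

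The steps from glucose uptake to lactate, and CA12, showed values of intermediate size. LDHA had 0.45 ± 0.1 (limma adjusted p = 0.0106), HK1 0.38 ± 0.0654 (0.00346), PGK1 0.38 ± 0.077 (0.00746), SLC2A1 0.37 ± 0.0651 (0.00385), CA12 0.37 ± 0.106 (0.0313), ALDOA 0.33 ± 0.0536 (0.00301), PKM 0.33 ± 0.0566 (0.00378) and GAPDH 0.19 ± 0.059 (0.0415), each with its limma adjusted p in brackets. With both the knockdown and cisplatin, SLC2A1, PGK1 and CA12 stood at 108%, 115% and 115% of untreated control cells. LDHA, PKM and GAPDH stood at 71.6%, 73.6% and 81.0%. GPI, TPI1, ENO1, SLC16A3, HIF1A and HK2 had interactions that did not pass the test, from -0.14 to 0.18.

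ADM (-1.35 ± 0.0736) and EPAS1 (-1.28 ± 0.0688) had the largest negative values, each with a limma adjusted p of 2.57e-05. Cisplatin took ADM to 346% of vehicle in shControl and 130.4% in shZDHHC8 cells, and EPAS1 to 234% and 93.5%. PFKP, the platelet-type phosphofructokinase, was at 161 and 161 FPKM in vehicle and 154 and 153 with cisplatin in shControl cells, and at 172 and 164 in vehicle and 129 and 125 with cisplatin in shZDHHC8 cells. It was the 1 glycolytic enzyme with a negative value that passed the test, with a fall called in shZDHHC8 cells and none called in shControl cells (-0.34 ± 0.0601, limma adjusted p = 0.00415). ENO1 (-0.14) and ENO2 (-0.15) had negative values that did not pass, and ENO1 passed under common total (-0.16, limma adjusted p = 0.0478) and median-of-ratios scaling (-0.19, limma adjusted p = 0.031). EGLN2, at 62.8 and 59.3 FPKM in vehicle and 69.6 and 66.1 with cisplatin in shZDHHC8 cells, had -0.31 ± 0.0735 (limma adjusted p = 0.0139). GAPDH lost its call without any 1 of the 8 libraries (limma adjusted p 0.0541 to 0.131), under common total scaling (0.0502) and under median-of-ratios scaling (0.106). CA12 lost it without either shControl vehicle (0.0811 and 0.0739), the first shZDHHC8 vehicle (0.0892), either shControl cisplatin (0.0635 and 0.0725) or the first shZDHHC8 cisplatin library (0.0972). PFKFB4 lost it without the first shControl vehicle (0.0814), second shZDHHC8 vehicle (0.0604), first shControl cisplatin (0.0682) or either shZDHHC8 cisplatin library (0.0672 and 0.0686), and EGLN2 without the second shZDHHC8 cisplatin library (0.0547). MXI1 (0.30, limma adjusted p = 0.0276) lost it without the first shControl vehicle (0.0893), first shZDHHC8 vehicle (0.0694), first shControl cisplatin (0.0836) or either shZDHHC8 cisplatin library (0.0701 and 0.079), and under median-of-ratios scaling (0.0569). Without the filter the limma adjusted p was 0.21 for GAPDH, 0.0556 for CA12 and 0.0565 for PFKFB4, and without the trend it was 0.107 for GAPDH. ARNT had 0.36 (limma adjusted p = 0.0118).

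Where a step is served by several members, the balance between them was taken as a share of their summed FPKM in each library, as a description. The sums hold members only. They leave out relatives of the second list such as PFKFB2 (3.52 to 7.16 FPKM) and ENO3 (3.2 to 7.25 FPKM). EPAS1 made up 9.08% and 8.88% of the HIF1A and EPAS1 sum in shControl vehicle and 22.1% and 23.9% in shControl cisplatin, and 9.36% to 10.3% in the 4 shZDHHC8 libraries. The shift toward EPAS1 was therefore seen in the control cells given cisplatin and in no other group. LDHB made up 10.7% and 10.1% of the lactate dehydrogenase sum in shControl vehicle, 16.4% and 17.1% in shControl cisplatin, 10.2% and 10.1% in shZDHHC8 vehicle, and 12.9% and 13.4% in shZDHHC8 cisplatin. SLC16A1 made up 14.3% and 13.7% of the pair of monocarboxylate transporters in shControl vehicle, 25.7% and 25.4% in shControl cisplatin, 12.7% and 13.4% in shZDHHC8 vehicle, and 20.2% and 19.6% in shZDHHC8 cisplatin. Both shares were higher with cisplatin in each kind of cell, and the shZDHHC8 cisplatin libraries lay between the vehicle and the shControl cisplatin ones. HK2 made up 12.0% and 11.7% of the hexokinase sum in shControl vehicle, 18.1% and 17.8% in shControl cisplatin, 13.7% and 13.3% in shZDHHC8 vehicle, and 16.9% and 18.5% in shZDHHC8 cisplatin. PFKFB4 stood apart in shZDHHC8 cisplatin, at 19.2% of the PFKFB3 and PFKFB4 sum in both libraries, against 9.29% to 13.0% in the other 6. PFKP held 67.2% to 73.1% of the phosphofructokinase sum. ENO1 held 98.8% to 99.5% of the ENO1 and ENO2 sum, and ALDOA at least 99.6% of the ALDOA and ALDOC sum in every library. The changes of ENO2 and ALDOC therefore concern small amounts of RNA.

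**Figure D4:**
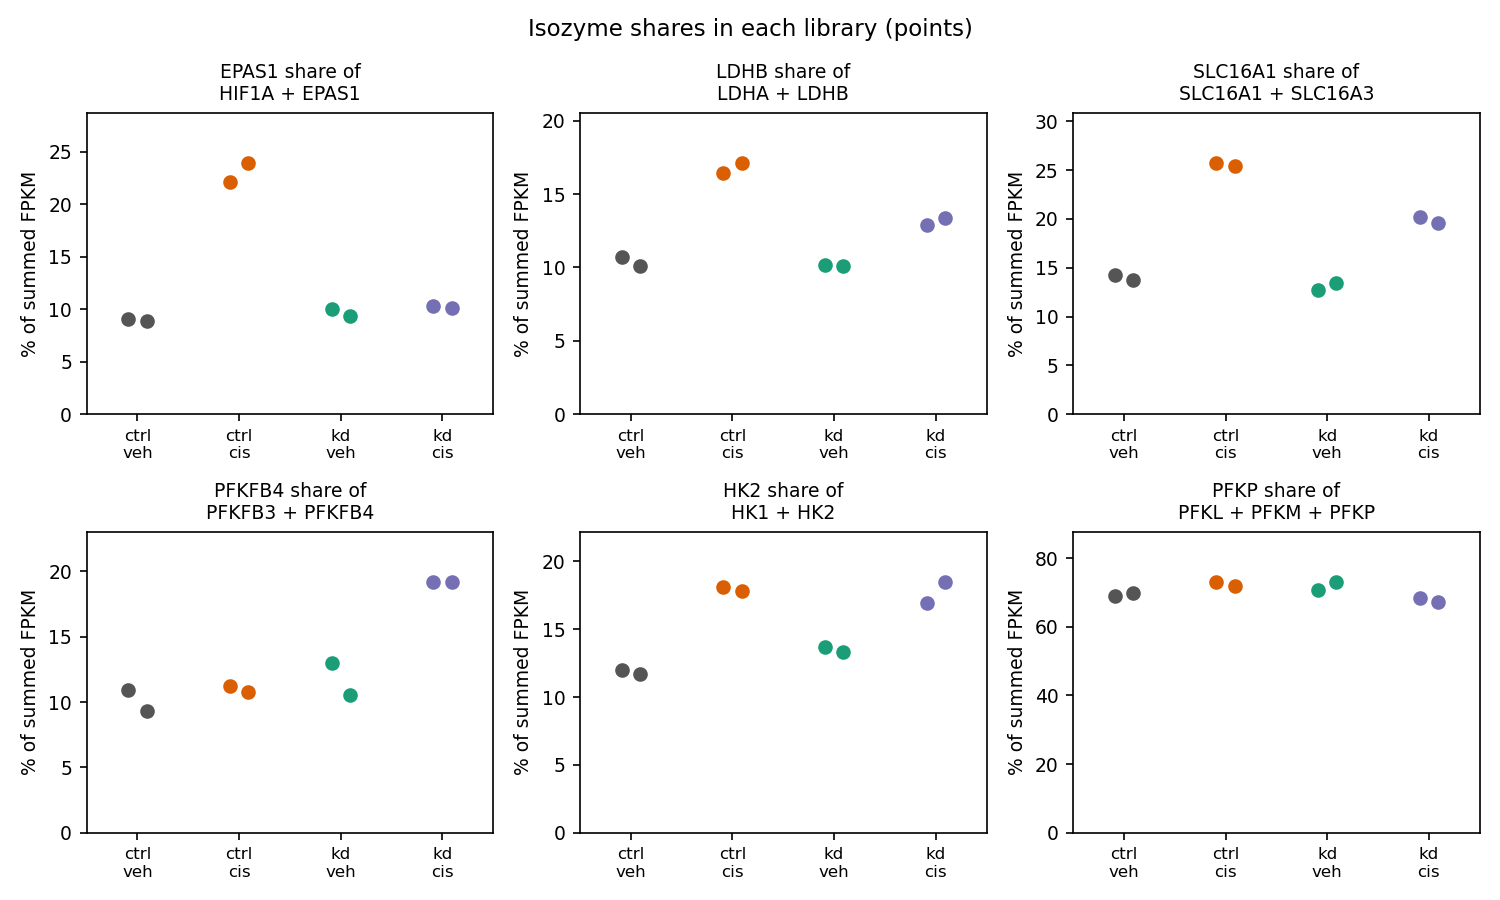
Share of 1 gene in the summed FPKM of the members named above each panel (vertical axes, percent, starting at 0) in the 8 libraries, 1 point a library. EPAS1 stands at 22.1% and 23.9% in shControl cells given cisplatin and at 8.88% to 10.3% elsewhere, and the LDHB, SLC16A1 and HK2 shares are higher with cisplatin in both kinds of cell.

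A second list held 71 other genes of the pathway and the hypoxia response, of which 63 had a row and 53 were tested. With cisplatin in shControl cells 17 of the 53 were called higher and 19 lower, beside 36.8% and 25.4% of all tested genes. In shZDHHC8 cells the counts were 20 and 12, beside 36.9% and 13.6%. The medians of the list were -0.04 and 0.09. With the knockdown in vehicle 20 were called higher and 14 lower, beside 26.7% and 25% of all tested genes. Under cisplatin the counts were 25 and 15, beside 33.8% and 27.6%. The medians of the list were -0.02 and 0.03. NDUFA4L2 passed the filter only through shZDHHC8 libraries, and SLC16A7 and SLC2A10 only through shControl libraries. Any knockdown call of these genes within the counts is no support for a difference. The interaction passed the test as positive for 19 and as negative for 8, beside 17% and 13.4%. Its median was 0.12. ANGPTL4, a secreted regulator of lipoprotein lipase, was at 1.91 and 1.84 FPKM in shControl vehicle, 8.1 and 8.63 in shControl cisplatin, 20.7 and 21.7 in shZDHHC8 vehicle, and 38.1 and 34.4 in shZDHHC8 cisplatin. It was called higher with cisplatin in both kinds of cell (1.70 and 0.74) and with the knockdown in both treatments (2.95 and 1.99). DDIT4, a stress-induced inhibitor of mTOR signalling, was at 78.4 and 77.7, then 39.0 and 39.0, then 149 and 143, then 76.3 and 75.3 FPKM in the same order of groups. It fell with cisplatin by 0.98 in shControl and 0.93 in shZDHHC8 cells. MIR210HG, the host gene of a hypoxia-induced microRNA, was at 4.61 and 5.07, 0.803 and 0.989, 7.36 and 6.73, and 3.81 and 4.98 FPKM. It fell with cisplatin by 1.62 and 0.58 and had an interaction of 1.04.

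The arrestin-like regulators ARRDC4 and TXNIP, which lower glucose uptake, rose with cisplatin in control cells by 1.68 and 1.32. A link to the fall of SLC2A1 in the same cells was not tested. ARRDC4 was at 6.12 and 6.27 FPKM in vehicle and 22.3 and 21.8 with cisplatin in shControl cells, and 6.42 and 7.22 against 10.9 and 10.7 in shZDHHC8 cells (interaction -1.08). TXNIP had an interaction of -1.15, with 109.5 and 109 FPKM against 279 and 269 in shControl cells and 135 and 151 against 160.1 and 162 in shZDHHC8 cells. STC2, a secreted stress protein, rose with cisplatin from 1.19 and 1.26 to 5.37 and 5.16 FPKM in shControl cells, more than TXNIP did. In shZDHHC8 cells it was at 3.52 and 3.45 FPKM in vehicle and 3.81 and 3.93 with cisplatin (interaction -1.38). PLOD2, a collagen lysyl hydroxylase, fell with cisplatin in shControl cells by 0.93, from 18.4 and 17.2 to 9.24 and 8.52 FPKM. In shZDHHC8 cells PFKFB2 and ENO3 rose with cisplatin by 0.73 and 0.70, and ARNT2 fell by 0.55. PYGL, the liver-type glycogen phosphorylase, fell with the knockdown in vehicle by 0.90, from 86.3 and 82.9 to 44.0 and 45.9 FPKM, as did ENO3 by 0.73 and the coactivator EP300 by 0.58. CA2, a cytosolic carbonic anhydrase, and STC2 rose by 1.34 and 1.01. Under cisplatin the knockdown had ARRDC4, SLC2A6 and PPP1R3B lower (-0.96, -0.86 and -0.83) and MIR210HG and FAM162A higher (1.5 and 1.22). CITED2, which competes with HIF for its coactivators, and PDK2 had interactions of 0.89 and 0.69.

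Some members share their locus with other genes. Whether reads were assigned by strand is not given in the sources used here, so the values of these members are uncertain. SLC16A3 overlaps CSNK1D on the opposite strand (mean 72.5 FPKM over the 8 libraries), P4HTM overlaps WDR6 on its own strand (14.8 FPKM), ANKRD37 overlaps UFSP2 (11.3), PFKM overlaps SENP1 (9.01) and EGLN3 overlaps SPTSSA (8.63). HIF1A overlaps antisense RNAs (up to 3.47 FPKM), ALDOA overlaps another coding gene on its own strand (7.6 FPKM) and PFKFB4 overlaps UCN2 (7.13). Processed copies of GAPDH, LDHA, PGAM1, TPI1 and BNIP3 also have rows, 6, 4, 4, 2 and 4 of them, and the highest, of LDHA, averaged 5.24 FPKM.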

How the data were processed

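Poly(A)+ RNA was purified from TRIzol extracts cleared of DNA, per the labels' protocols. The authors deposited a single normalized table without a named unit, and FPKM was assumed from its fractional values and unequal column totals. Coordinates are on hg38, per the labels; the sources used here do not name an aligner, quantifier, annotation or strand setting. A count test was planned for counts and was not run. No whole-read step was found, since at most 7 to 11 of 825 to 1010 low genes shared a ratio between replicates, so depth is unknown and precision comes from replicates.

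Values were used as deposited, as log2(FPKM + 1). The 13495 of 21123 genes that reached 1 FPKM in 2 or more libraries entered 1 limma 3.58.1 model (R 4.3.3; lmFit, eBayes with trend) with 4 group means (residual df 4, prior df 4.64), which gave the 5 contrasts and Benjamini-Hochberg adjusted p over all tested genes. The script was tested on simulated data. Over the genes tested, the SE had a median of 0.0792 in single contrasts and 0.112 in the interaction. Pearson's r of log2 values was 0.995 to 0.996 within groups and 0.939 to 0.978 between them.

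Members, gene lists and motifs were chosen with earlier results of these data known, so no list test is given. Values in every library are printed for HIF1A, EPAS1, SLC2A1, HK2, LDHA, PGK1 and up to 5 largest called rises and 5 falls of each comparison, and up to 3 of each from the second list are named; further members and TXNIP are named for completeness. Promoter windows are from RefSeq. The alternatives were 2 other scalings, a pseudocount of 0.1, no filter, eBayes without trend, the 4 libraries of a comparison alone, a replicate block and each library left out.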

Additional observations from a re-analysis of the deposited data

Results flagged for a closer look

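The members whose response to cisplatin differed between the 2 kinds of cell, by the limma test of the interaction, are given here as the log2 change in shZDHHC8 cells minus that in shControl cells. A smaller or opposite response in shZDHHC8 cells was largest for ADM (-1.35) and EPAS1 (-1.28), both of which rose in shControl cells. EGLN2 (-0.31) rose in both, and PFKP (-0.34) fell in shZDHHC8 cells.

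Positive differences were largest for BNIP3L (0.71), ALDOC (0.62), KDM3A (0.60) and PGAM1 (0.51). PFKFB4 (0.47) and ARNT (0.36) rose with cisplatin in shZDHHC8 cells, as did MXI1 (0.30). Among genes of the route from glucose to lactate the difference was 0.45 for LDHA, 0.38 for PGK1, 0.38 for HK1, 0.37 for SLC2A1, 0.33 for ALDOA, 0.33 for PKM and 0.19 for GAPDH, and it was 0.37 for CA12. With 2 libraries a group, no outlying library could be looked for.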

How the results depend on the processing

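Each member's log2 change was recomputed under every alternative, which gave 2960 values over the 5 comparisons. Of these 2798 kept their side of the threshold, 132 kept the direction and lost the call, 28 kept it and gained a call, and 2 reversed. A reversal is a change of sign where the gene was called in the fit given above or in the alternative. Changes of sign without a call in either fit are among the 2798. The 2 reversals were both with cisplatin in shZDHHC8 cells under median-of-ratios scaling, PGAM1 to -0.15 and EGLN2 to -0.00141. That scaling also took the members' medians to -0.363 (cisplatin in shControl cells), -0.222 (cisplatin in shZDHHC8 cells), 0.083 (knockdown in vehicle) and 0.123 (knockdown under cisplatin), and the members called higher with cisplatin in shZDHHC8 cells from 7 to 4. Under median-of-ratios scaling the medians of all genes were -0.0165, 7e-04, -0.0033 and -0.0185 in the same order. Common total scaling took the members' knockdown medians to 0.037 in vehicle and 0.102 under cisplatin, beside -0.043 and -0.0398 for all genes. A pseudocount of 0.1 took the median with cisplatin in shControl cells to -0.282, and no filter that of the knockdown in vehicle to 0.092. For the scalings and the pseudocount the change of scale itself moves every value; other causes were not tested.

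With each library left out, the median was -0.286 to -0.24 for cisplatin in shControl cells, -0.129 (without the first shZDHHC8 cisplatin library) to -0.061 (without the second) for cisplatin in shZDHHC8 cells, 0.089 to 0.107 for the knockdown in vehicle and 0.186 to 0.253 under cisplatin. Members called higher with cisplatin in shZDHHC8 cells were 4 to 7, with 4 without the second shZDHHC8 cisplatin library. Members called lower with the knockdown in vehicle were 2 to 4, with 2 without either shControl vehicle library.

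With a replicate block the members called higher and lower were 6 and 22, 6 and 16, 14 and 4, 21 and 7, and 14 and 5 in the order of the comparisons above and then the interaction. Deviations of same-numbered libraries correlated from -0.0515 to 0.0198 over 6 pairs of groups. No effect shared by same-numbered libraries was thus seen, which does not settle whether they were prepared together. The block ended the calls of EGLN2 with cisplatin in shZDHHC8 cells (limma adjusted p = 0.0559), PKM and MXI1 with the knockdown in vehicle (0.0558 and 0.0539), HIF1A with the knockdown under cisplatin (0.0514) and the GAPDH interaction (0.0522), and added the VEGFA interaction (-0.34, 0.0412). The fit of 4 libraries alone gives no interaction, and DESeq2 was not run because there are no counts. Depth is unknown, so no limit of detection can be given for genes near 0, such as SLC2A3.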
